A study of Mus musculus with 6 samples.

Results

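The genes described here copy the genome and repair broken or crosslinked DNA by homologous recombination. They were chosen by gene symbol: the Mcm2 to Mcm10 genes, the Orc, Rfc and Gins subunits, the subunits of DNA polymerases alpha, delta and epsilon and of primase, every symbol starting with Fanca to Fancm or with Rad50 to Rad59, and single genes from Cdc6 and Pcna to Brca1, Atm and Chek2. No measured value entered this rule, although the members were chosen with earlier results of these data known. The rule found 77 genes of the 17710 listed in any library. Each XEN library listed 75 of them and each ES library all 77, and 75 had enough counts to be tested.

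Extraembryonic endoderm (XEN) cells were of strain ICR and grew in RPMI1640 medium with 15% fetal bovine serum. Such lines stem from the primitive endoderm, which lines the yolk sac in the embryo. Embryonic stem (ES) cells were of strain 129/Ola and grew on gelatin in serum-free N2B27 medium with 2i inhibitors and LIF, a condition that holds them in a naive pluripotent state. Each group had 3 libraries, named A, B and C, made from total RNA of cells kept without feeders and sequenced on the BGISEQ-500. The labels name no separate cultures for the 3 libraries of a group, so p-values measure only their spread, which may be technical. Cell type, strain and medium differ together between the groups, and their parts cannot be told apart. In bulk RNA, fewer cells in S phase and less transcript per cell cannot be told apart either.

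The XEN libraries held 21134720 to 22375875 expected counts and the ES libraries 20675311 to 22037793. All 10 genes on a list of XEN markers rose and all 10 on a list of ES markers fell. Defining fibroblast genes (Col1a1, Col1a2, Col3a1, Dcn and Postn) were too low to test in either group. Of the other 4 listed fibroblast genes, Fbn1 (log2 fold change 4.66) and Pdgfrb (1.17) rose, and Thy1 (-3.98) and Twist1 (-5.61) fell. The fibroblast list of 9 genes summed to 23.8 to 27.6 CPM in XEN and 8.19 to 8.39 CPM in ES libraries. The 8 listed trophoblast genes summed to 1131 to 1232 CPM in XEN and 131.5 to 132.1 CPM in ES libraries. The keratins Krt8 (714 CPM) and Krt18 (460.0 CPM) gave most of the mean sum in XEN cells, and Tfap2c (58.7 CPM), Krt8 (43.9 CPM) and Eomes (22.2 CPM) in ES cells. The 6 neural genes summed to 14.1 to 14.5 CPM in XEN and 86.9 to 93.0 CPM in ES libraries, and the 6 mesoderm genes to 4.27 to 5.22 CPM in XEN and 7.89 to 10.3 CPM in ES libraries. The part of other cell types in the results below was not tested.

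In a dividing cell, the origin recognition complex marks replication origins, and CDC6 and CDT1 load the MCM helicase there before S phase. CDC45 and the GINS complex switch the helicase on, polymerase alpha with primase starts each strand, and polymerases delta and epsilon, held by the PCNA clamp, extend it. When a fork meets a crosslink or a break, the Fanconi proteins open the lesion, the ATM and ATR kinases signal it, and BRCA2 prepares the single strand for copying from the sister chromatid. Pluripotent cells divide fast, with a short first gap phase, and are known to lean on this repair pathway.

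Transcripts of this machinery were on the whole lower in XEN cells, mostly by less than 2-fold. Of the 75 tested members, 50 fell and 18 rose in XEN cells, and 7 did not pass an adjusted p of 0.05 in the edgeR quasi-likelihood test. Over all 13581 tested genes, 46.7% fell and 42% rose. The members' median log2 fold change, XEN over ES, was -0.48 (quartiles -0.81 and 0.09), against -0.07 (quartiles -1.04 and 0.81) for all tested genes. Against a fold of 2 (glmTreat), 10 members fell, while 23.4% of all tested genes did. In the same test no member passed as a rise past 2-fold, against 19.3% of all tested genes, both at an adjusted p of 0.05. At an unadjusted p of 0.05 there were also 0 members. The fitted folds of Pold4 (2.12) and Cdc45 (2.03) were above 2, but did not pass (glmTreat adjusted p 0.182 and 0.307). Of the members, 59 of the 75 (78.7%) lay within 2-fold either way, against 52.9% of all tested genes. The XEN and ES libraries did not overlap in CPM for 68 of the 75 members, and for 89.4% of all tested genes.

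The members together took 0.533%, 0.537% and 0.545% of the counts of the XEN libraries, against 0.764%, 0.773% and 0.758% in the ES libraries. These are shares of all expected counts, not corrected for composition. The replication genes (25 of 39 fell, 10 rose, median log2 fold change -0.40) and the repair genes (25 of 36 fell, 8 rose, median -0.49) had like counts. In 11 of 12 groups by role, at least 1 member rose while another fell. In the Fanconi core group the only rise was that of Fancb, and in the group of Fanci and Fancd2 that of Fancd2. Both calls were lost under upper-quartile scaling and on FPKM. All tested genes were split as well, with 46.7% lower and 42% higher in XEN cells. Levels below are the deposited FPKM, which correct for gene length and depth but not for composition. The fold changes were fitted on counts after TMM scaling (factors 0.951 to 0.960 in XEN, 1.044 to 1.05 in ES), and so lie somewhat higher than the ratio of the FPKM means. Upper-quartile scaling lowered the median of all tested genes by 0.15 on the log2 scale, and calls that it removed are named beside the gene.

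**Figure D1:**
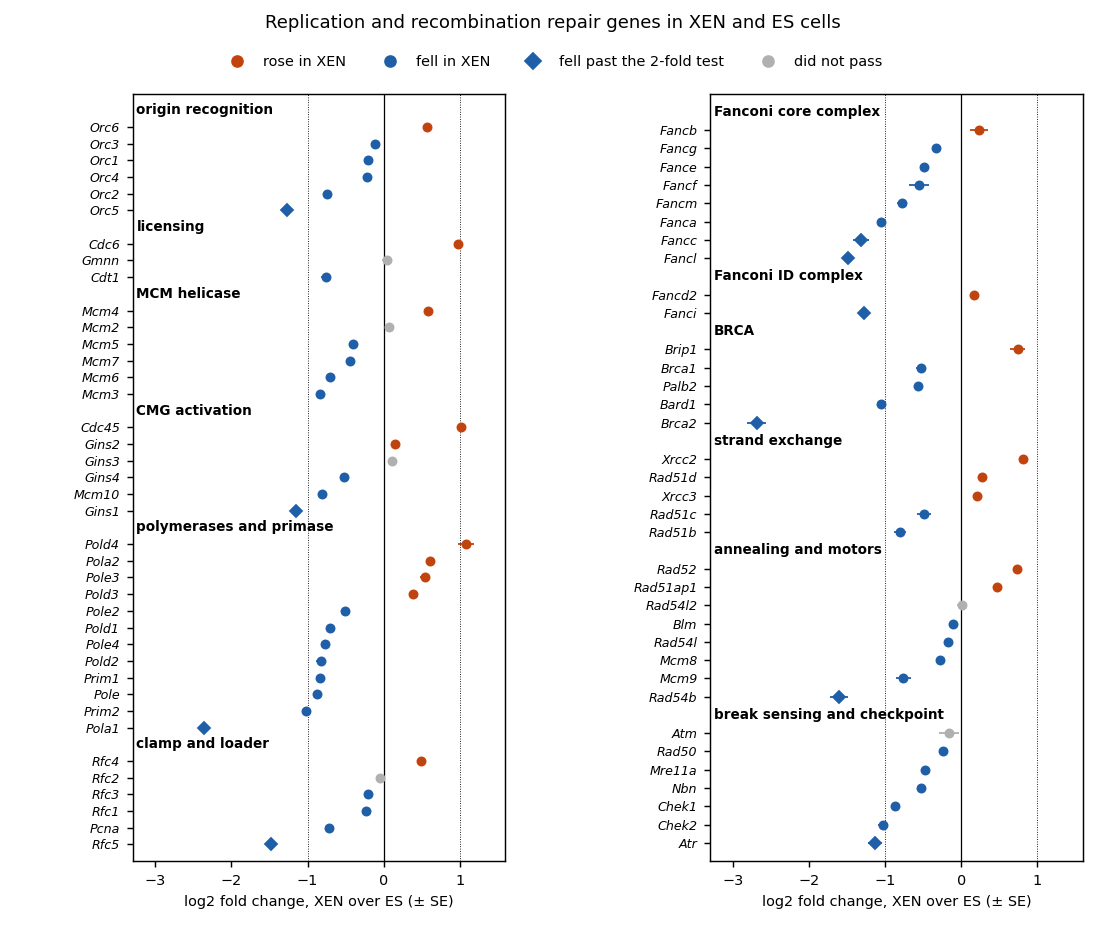
Fitted log2 fold change, XEN over ES, of tested members by role, with standard errors (n = 3 libraries per group); dotted lines mark a fold of 2. Blue points fell, orange points rose, grey points did not pass an adjusted p of 0.05, and diamonds passed the test against 2-fold. All 10 diamonds lie on the side of lower expression in XEN cells, led by Brca2 and Pola1.

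**Figure D2:**
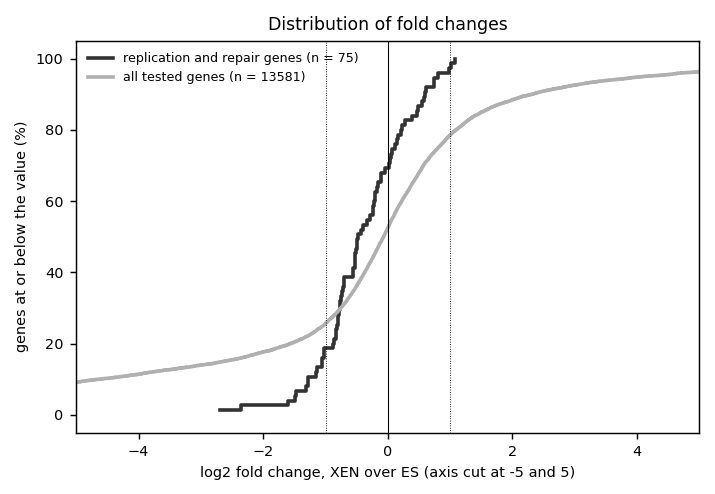
Cumulative share of genes (vertical axis, %) at or below each log2 fold change, XEN over ES, for the 75 tested members and for all 13581 tested genes. The members' curve is steeper and crosses that of all genes: it lies to the right at the lower quartile (-0.81 against -1.04) and to the left at the median (-0.48 against -0.07) and the upper quartile (0.09 against 0.81).

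Origin recognition genes, whose products bind origins as a ring, fell in 5 of 6 cases, and Orc6 rose. Orc5 (gene ID 26429, chromosome 5) stood at 28.8, 28.0 and 30.5 FPKM in XEN libraries, against 76.5, 79.2 and 75.1 FPKM in ES libraries. Orc6, which joins the ring last, stood at 69.3, 73.7 and 74.0 FPKM in XEN libraries, against 51.7, 52.6 and 52.0 FPKM in ES libraries. The groups did not overlap for either gene, and the 2 genes went opposite ways: Orc5 fell (log2 fold change -1.27 ± 0.04 SE, adjusted p 1.12e-16) and Orc6 rose (0.58 ± 0.03, adjusted p 4.38e-11). Orc6 was the most abundant of the 6 subunits in XEN cells and Orc5 in ES cells; the order of the other 4 (Orc1, Orc2, Orc3, Orc4) was the same in both. Orc2 fell by 0.74 on the log2 scale, and Orc1, Orc3 and Orc4 fell by 0.12 to 0.22.

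The licensing factors did not move together. Cdc6, the ATPase that loads the helicase, stood at 28.4, 26.1 and 26.4 FPKM in XEN libraries, against 15.3, 14.6 and 15.1 FPKM in ES libraries. Cdt1, its partner in loading, stood at 52.5, 57.7 and 60.3 FPKM in XEN libraries, against 106, 106.4 and 103 FPKM in ES libraries. Cdc6 rose (log2 fold change 0.98 ± 0.05, adjusted p 1.81e-14) and Cdt1 fell (-0.76 ± 0.06, adjusted p 1.35e-12), each without overlap between groups. Geminin (Gmnn), which inhibits CDT1, overlapped between groups (74.6 ± 3.98 FPKM in XEN, 78.8 ± 3.57 FPKM in ES; SD, n = 3 each; adjusted p 0.4). The ratio of Gmnn to Cdt1 in FPKM was 1.31 ± 0.02 in XEN and 0.75 ± 0.04 in ES libraries (SD, n = 3 each). Ratios between members are given as descriptions, with no test, since the pairs were chosen after their values were seen.

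The 6 genes of the MCM ring, the helicase that unwinds the template, were among the most abundant members. Mcm3, Mcm5, Mcm6 and Mcm7 fell, with log2 fold changes from -0.83 (Mcm3) to -0.40 (Mcm5). Mcm4 rose (0.59 ± 0.03, adjusted p 6.95e-12), and Mcm2 did not pass (0.07 ± 0.03, adjusted p 0.0991; 0.0412 without XEN library A, and -0.08 on the log2 scale under upper-quartile scaling). Mcm3 stood at 79.6, 82.4 and 85.8 FPKM in XEN libraries, against 161.8, 166.2 and 154.1 FPKM in ES libraries. Mcm4 stood at 134.2, 126.9 and 130.2 FPKM in XEN libraries, against 96.0, 96.8 and 92.0 FPKM in ES libraries. Mcm7 was highest in both (146 ± 5.14 FPKM in XEN, 217 ± 6.48 FPKM in ES; SD, n = 3 each). Mcm4 was second in XEN cells and last in ES cells.

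Among the factors that activate the helicase, Cdc45 rose and Gins1 fell past 2-fold. Cdc45 stood at 58.5, 57.2 and 59.9 FPKM in XEN libraries, against 31.2, 32.8 and 31.1 FPKM in ES libraries (log2 fold change 1.02 ± 0.03, adjusted p 2.43e-15; adjusted p against 2-fold 0.307). Gins1, a subunit of the 4-part GINS complex, stood at 15.7, 17.1 and 18.4 FPKM in XEN libraries, against 41.5, 42.6 and 39.7 FPKM in ES libraries (-1.15 ± 0.07, adjusted p 5.49e-13). Neither gene's groups overlapped. Its partners differed: Gins4 fell by 0.52, Gins2 passed as higher (0.15 ± 0.05), a call lost under upper-quartile scaling (0.01), on FPKM and without ES library B, and Gins3 did not pass (0.12 ± 0.05, adjusted p 0.161). Mcm10, which helps the helicase start, fell by 0.81. Cdc45 was the most abundant of these 6 genes in XEN cells and the fifth in ES cells.

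Polymerase genes held the second largest fall of all members. Pola1 (gene ID 18968, chromosome X), the catalytic subunit of polymerase alpha, which starts every new strand, stood at 6.14, 5.73 and 6.07 FPKM in XEN libraries, against 33.6, 35.3 and 31.8 FPKM in ES libraries. Pola2 (gene ID 18969, chromosome 19), its accessory subunit, stood at 60.8, 62.5 and 61.3 FPKM in XEN libraries, against 44.4, 44.9 and 42.3 FPKM in ES libraries. The groups lay far apart for both: Pola1 was 5.12-fold lower in XEN cells (log2 fold change -2.36 ± 0.05, adjusted p 1.48e-20) while Pola2 rose (0.62 ± 0.03, adjusted p 5.73e-12). The ratio of Pola1 to Pola2 was 0.0973 ± 0.00494 in XEN and 0.764 ± 0.0179 in ES libraries (FPKM; SD, n = 3 each). Both primase subunits, which make the RNA primer in the same 4-part complex, fell: Prim1 by 0.83 and Prim2 by 1.02. Pola1 was the least abundant of the 12 polymerase and primase genes in XEN cells and the eighth in ES cells.

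Within polymerases delta and epsilon, 5 subunits fell and 3 rose. The catalytic subunits Pold1 (-0.70) and Pole (-0.87), and Pold2 (-0.82), Pole2 (-0.51) and Pole4 (-0.77), fell. The accessory subunits Pold3 (0.38) and Pold4 (1.08 ± 0.11, adjusted p 4.88e-09) and the histone-fold subunit Pole3 (0.54) rose. Pold4, the smallest delta subunit, stood at 13.4, 14.5 and 15.1 FPKM in XEN libraries, against 6.58, 7.17 and 8.26 FPKM in ES libraries. It had the largest rise of the members, and the groups did not overlap. Pole3 and Pole4 form a pair in the protein complex and moved in opposite directions.

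Pcna, the sliding clamp that holds polymerases on DNA, was the most abundant member of all in both groups, at 187.7, 194.8 and 194.2 FPKM in XEN libraries against 350.2, 335.3 and 347.9 FPKM in ES libraries. It fell (log2 fold change -0.72 ± 0.03, adjusted p 1.34e-13) with no overlap between groups. Of the clamp loader RFC, which opens the ring, Rfc5 (gene ID 72151, chromosome 5) fell past 2-fold. It stood at 34.7, 36.5 and 38.0 FPKM in XEN libraries, against 109, 109.2 and 114.3 FPKM in ES libraries (-1.48 ± 0.04, adjusted p 6.75e-18). Rfc4 rose (0.49 ± 0.04, adjusted p 2.2e-08), at 38.9 ± 1.45 FPKM in XEN and 30.2 ± 1.12 FPKM in ES libraries (SD, n = 3 each). Rfc1 and Rfc3 fell by 0.23 and 0.20, and Rfc2 did not pass (-0.04 ± 0.05, adjusted p 0.398), but passed as lower under upper-quartile scaling (-0.19) and on FPKM. In XEN cells the 4 small loader genes and Rfc1 lay between 31.3 and 53.5 FPKM, and in ES cells Rfc5 stood apart at 111 FPKM.

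**Figure D3:**
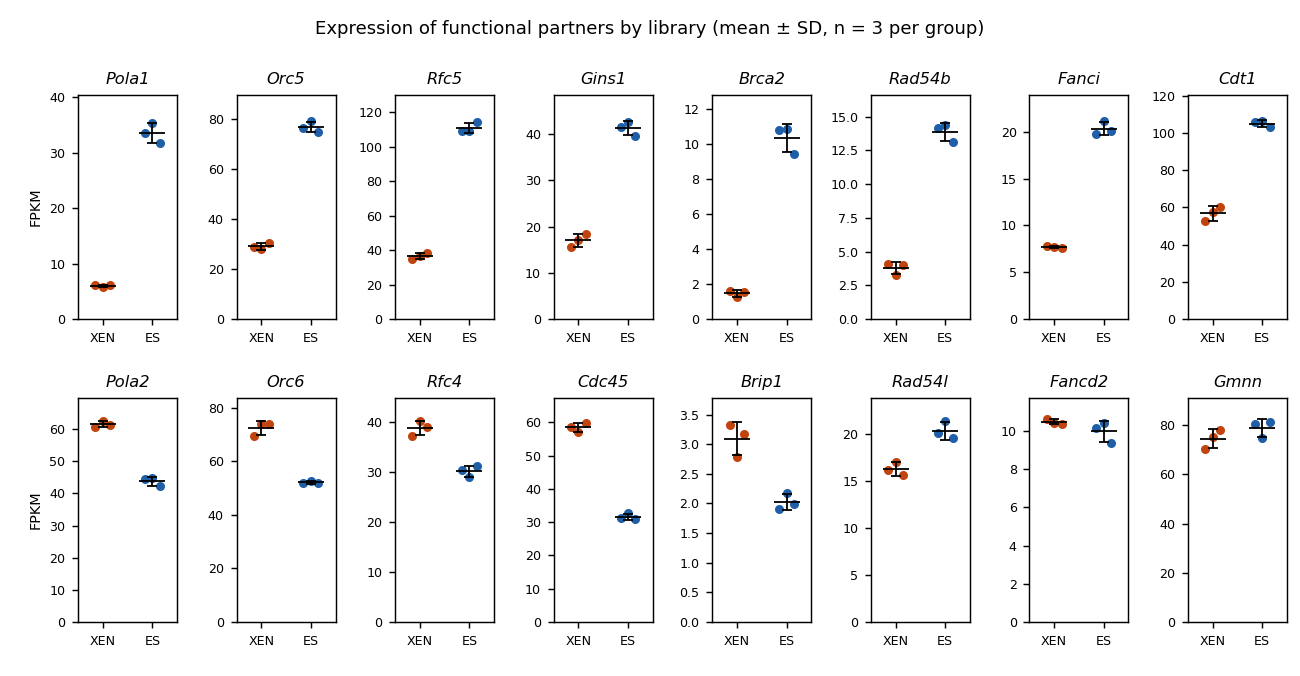
FPKM per library (points; linear axes from 0) with mean and SD over 3 libraries, XEN left and ES right, for 8 pairs of genes of the same complex or process. In the upper row all 8 genes are lower in every XEN library than in every ES library. In the lower row Pola2, Orc6, Rfc4, Cdc45 and Brip1 are higher in XEN, Rad54l is lower, and Fancd2 and Gmnn overlap.

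Most repair genes of the Fanconi pathway were lower in XEN cells. Mean levels of the core complex genes ran from 1.67 to 9.21 FPKM in XEN cells and from 2.70 to 25.4 FPKM in ES cells. Of the 8 tested core complex genes, 7 fell. Fancl, the ubiquitin ligase that marks the FANCI-FANCD2 pair, stood at 7.69, 9.07 and 8.07 FPKM in XEN libraries, against 26.6, 24.9 and 24.7 FPKM in ES libraries (log2 fold change -1.49 ± 0.07, adjusted p 9.65e-15). Fancc, a scaffold of the core, stood at 2.18, 2.58 and 2.78 FPKM in XEN libraries, against 7.12, 6.66 and 6.90 FPKM in ES libraries (-1.32 ± 0.10, adjusted p 1.23e-11). Both passed the test against 2-fold, and their groups did not overlap. Fanca fell by 1.05 and Fancm, the translocase that anchors the core on DNA, by 0.78, while Fance, Fancf and Fancg fell by 0.33 to 0.55. Fancb passed as higher (0.23 ± 0.12, adjusted p 0.0278) although its FPKM overlapped between groups; DESeq2 gave an adjusted p of 0.0774, and the call was also lost under upper-quartile scaling, on FPKM and without ES library B or XEN library C.

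The pair that this ligase marks had unequal changes. Fanci stood at 7.77, 7.68 and 7.59 FPKM in XEN libraries, against 19.8, 21.1 and 20.1 FPKM in ES libraries, and fell past 2-fold (log2 fold change -1.27 ± 0.03, adjusted p 1.52e-16). Fancd2 stood at 10.6, 10.5 and 10.4 FPKM in XEN libraries, against 10.2, 10.4 and 9.38 FPKM in ES libraries. It passed as slightly higher (0.17 ± 0.04, adjusted p 0.00238), but not under upper-quartile scaling (0.02) or on FPKM. The ratio of Fanci to Fancd2 was 0.733 ± 0.00207 in XEN and 2.04 ± 0.0968 in ES libraries (FPKM; SD, n = 3 each). Fancd2os, a gene on the strand opposite Fancd2 that the symbol rule also caught, had 0 counts in every XEN library and 11, 11 and 8 counts in the ES libraries. It was too low to test, and whether counting used the strand is not given in the sources used here.

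Brca2 had the largest fall of all members. This mediator of strand exchange (gene ID 12190, chromosome 5) stood at 1.59, 1.26 and 1.54 FPKM in XEN libraries, against 10.8, 10.9 and 9.42 FPKM in ES libraries, with a wide gap between the groups. It was 6.46-fold lower in XEN cells (log2 fold change -2.69 ± 0.13, adjusted p 1.67e-10). Its partners fell less: Brca1, the ligase that directs break repair, by 0.53, Bard1, which pairs with BRCA1, by 1.06, and Palb2, which bridges BRCA1 and BRCA2, by 0.57. Brip1, a helicase that binds BRCA1, rose (0.74 ± 0.10, adjusted p 3.08e-08), at 3.32, 2.78 and 3.17 FPKM in XEN libraries against 1.91, 2.17 and 1.99 FPKM in ES libraries. Among these 5 genes, Brca2 was last in XEN cells and second to Brca1 in ES cells. The ratio of Brca2 to Palb2 was 0.262 ± 0.0344 in XEN and 1.13 ± 0.103 in ES libraries (FPKM; SD, n = 3 each).

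Of the recombination paralogs, which act early in strand exchange, Rad51b (-0.80) and Rad51c (-0.49) fell. Xrcc2 rose (0.81 ± 0.05, adjusted p 8.75e-11), at 10.8, 10.6 and 10.7 FPKM in XEN libraries against 6.27, 6.69 and 7.07 FPKM in ES libraries. Rad51d (0.28) and Xrcc3 (0.21) passed as higher, and both calls were lost under upper-quartile scaling and on FPKM, and that of Xrcc3 also without ES library C.

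Among annealing and motor proteins of recombination, 5 of 8 tested genes fell and 2 rose. Rad54b, a translocase of recombination, stood at 4.05, 3.28 and 3.99 FPKM in XEN libraries, against 14.2, 14.4 and 13.1 FPKM in ES libraries (log2 fold change -1.61 ± 0.12, adjusted p 5.39e-14). Its close relative Rad54l fell by 0.18, and the helicases Mcm8 and Mcm9 by 0.28 and 0.76. Rad52, a strand annealing protein, rose (0.74 ± 0.04, adjusted p 4.91e-08; 9.49 ± 0.147 FPKM in XEN, 6.25 ± 0.287 FPKM in ES; SD, n = 3 each). So did Rad51ap1, a stimulator of strand pairing (0.47 ± 0.06). Blm, the Bloom helicase, passed as lower (-0.11 ± 0.04, adjusted p 0.0226), a call lost without ES library B, XEN library B or XEN library C (adjusted p 0.0565 to 0.112). Rad54l2, which shares a symbol with this family but is known as a cofactor of the androgen receptor, did not pass (0.01 ± 0.07). Rad51ap2 had 0 counts in every XEN library and 2, 1 and 1 in ES libraries, and was too low to test.

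Of the break sensors and checkpoint kinases, 6 of 7 fell and Atm did not pass. Atr, the kinase of stalled forks, stood at 3.96, 3.22 and 3.52 FPKM in XEN libraries, against 8.61, 8.81 and 8.29 FPKM in ES libraries (log2 fold change -1.13 ± 0.09, adjusted p 2.92e-12). Atm, the kinase of double-strand breaks, stood at 3.89, 3.02 and 3.54 FPKM in XEN libraries, against 4.52, 4.37 and 3.92 FPKM in ES libraries, so that the groups nearly met in FPKM, and they overlapped in CPM. It did not pass (-0.16 ± 0.13, adjusted p 0.155), but passed as lower under upper-quartile scaling, on FPKM, with the replicate letter as a block (adjusted p 0.0338) and without ES library C or XEN library A. Their effectors Chek1 (-0.86) and Chek2 (-1.02) fell. Chek1 stood at 13.7, 14.1 and 15.2 FPKM in XEN libraries, against 28.5, 28.0 and 29.4 FPKM in ES libraries. The 3 genes of the MRN complex, which holds broken ends, fell less: Nbn by 0.53, Mre11a by 0.48 and Rad50 by 0.24.

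Promoter sequences from RefSeq (GRCm38.p6; 250 bases before to 50 after the start) were found for 61 of the 77 members, 59 of them tested. They were searched on both strands for the E2F-type octamers TTTGGCGC, TTTCGCGC, TTTCCCGC and TTTGCCGC, since E2F factors are known regulators of S phase genes. Of the 59 tested members, 21 (35.6%) held a match in at least 1 listed promoter, against 4.78% of the 10337 tested genes with a promoter and 2.6% of all 27025 genes in the table. Matches were found for 18 of 43 members that fell and 2 of 13 that rose, and for 15 of 31 replication genes and 6 of 28 repair genes. Over all tested genes the share was 4.8% of those that fell and 4.31% of those that rose. Each of the 4 MCM genes that fell (Mcm3, Mcm5, Mcm6, Mcm7) held at least 2 matches in its first listed promoter (Mcm7 has a second, with 0). The 2 matches of Mcm5 overlapped on opposite strands and so were not separate stretches of sequence. The same held for 2 of the matches of Mcm6. Mcm2, which did not pass, held 0. Mcm4, which rose, was not among the 61. CCAAT boxes (CCAAT, both strands) were in promoters of 64.4% of members, against 43.4% of tested genes, and TTTGAA or TTCGAA in 15.3%, against 16.2%. A match is a description of these letters and not evidence of binding.

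Promoters of 5 members are shown because these genes carry the contrasts above: the subunit pair Pola1 and Pola2, Brca2 with the largest fall, Mcm6 with the most E2F-type matches, and Cdc6, which rose with a match. Capitals mark E2F-type octamers and CCAAT boxes on either strand; 2 octamers overlap in Mcm6, and Pola2 has neither motif.
Pola1, chrX:93632106-93632405, minus strand: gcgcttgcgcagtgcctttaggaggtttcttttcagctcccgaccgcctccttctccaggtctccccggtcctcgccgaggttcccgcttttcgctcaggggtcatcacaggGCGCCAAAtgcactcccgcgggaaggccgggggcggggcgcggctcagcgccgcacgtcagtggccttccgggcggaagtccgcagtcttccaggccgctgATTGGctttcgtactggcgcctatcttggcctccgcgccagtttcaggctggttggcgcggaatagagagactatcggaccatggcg
Pola2, chr19:5964157-5964456, minus strand: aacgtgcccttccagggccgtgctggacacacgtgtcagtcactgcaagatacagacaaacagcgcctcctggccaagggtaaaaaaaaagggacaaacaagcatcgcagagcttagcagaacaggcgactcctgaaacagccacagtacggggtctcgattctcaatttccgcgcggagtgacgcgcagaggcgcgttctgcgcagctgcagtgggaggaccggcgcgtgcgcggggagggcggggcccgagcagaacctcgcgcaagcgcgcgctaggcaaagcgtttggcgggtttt
Brca2, chr5:150522371-150522670, plus strand: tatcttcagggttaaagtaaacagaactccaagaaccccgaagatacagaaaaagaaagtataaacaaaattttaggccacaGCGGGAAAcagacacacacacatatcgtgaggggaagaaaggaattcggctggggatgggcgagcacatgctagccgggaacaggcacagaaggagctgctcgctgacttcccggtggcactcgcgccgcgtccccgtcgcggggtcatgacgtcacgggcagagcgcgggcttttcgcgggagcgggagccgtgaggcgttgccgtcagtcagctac
Mcm6, chr1:128359656-128359955, minus strand: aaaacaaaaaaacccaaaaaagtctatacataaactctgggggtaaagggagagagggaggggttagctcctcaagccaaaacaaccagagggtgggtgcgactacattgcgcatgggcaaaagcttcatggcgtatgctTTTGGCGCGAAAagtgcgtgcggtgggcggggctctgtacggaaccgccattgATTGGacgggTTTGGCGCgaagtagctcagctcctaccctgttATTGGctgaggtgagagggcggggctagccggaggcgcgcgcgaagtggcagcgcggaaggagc
Cdc6, chr11:98907901-98908200, plus strand: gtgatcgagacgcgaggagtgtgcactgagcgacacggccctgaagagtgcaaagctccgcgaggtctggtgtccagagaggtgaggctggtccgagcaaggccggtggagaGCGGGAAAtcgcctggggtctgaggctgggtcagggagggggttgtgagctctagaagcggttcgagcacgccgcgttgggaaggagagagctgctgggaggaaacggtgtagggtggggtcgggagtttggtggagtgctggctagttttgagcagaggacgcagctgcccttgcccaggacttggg

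The single octamer of Pola1 and that of Cdc6 began at the same distance from the start, at position -138 with the start base as 0, although Pola1 fell 5.12-fold and Cdc6 rose 1.97-fold. In Brca2 it began at -168. The coordinates are those of GRCm38.p6 and not of mm9, the build that the submitters' processing notes name for the deposited values.

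Neighbouring gene groups were set beside the members, each with its counts. Over all 13581 tested genes, 46.7% fell and 42% rose (median log2 fold change -0.07). The genes of deoxynucleotide supply (50% fell, 41.7% rose) lay near these shares. Of 29 other replication factors, 18 fell and 9 rose (median log2 fold change -0.33); under upper-quartile scaling and on FPKM, 19 fell and 4 rose. The 3 subunits of the single-strand binding protein RPA fell by 0.47 to 0.79, Uhrf1, which carries DNA methylation over to the new strand, by 1.65, and Rif1, a timing factor, by 1.82, while the flap nuclease Fen1 rose (0.66). Of 32 other Fanconi and recombination factors, 18 fell and 10 rose (median -0.25). They included Slx4, the nuclease scaffold of the Fanconi pathway, which rose past 2-fold (1.47 ± 0.05, adjusted p 2.33e-17), and the meiotic recombinase Dmc1, which had 0, 0.0466 and 0 CPM in XEN libraries against 3.37, 3.92 and 3.52 CPM in ES libraries.

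All 6 mismatch repair genes reported here fell (median log2 fold change -0.75), and 2 of them past 2-fold: Msh6 by 2.13 and Mlh3 by 1.56. Of 15 end joining genes, 8 fell and 3 rose; Parp1 (-1.66), Xrcc5 (-1.55) and Dclre1c (-1.42) fell past 2-fold, and Polq, the polymerase of microhomology-mediated joining, rose (1.06 ± 0.11, adjusted p 1.06e-09). Of 9 tested other DNA polymerases, 5 rose and 4 fell, with Polk (1.25), a translesion enzyme, and Polg (1.21), the mitochondrial polymerase, past 2-fold up, and Poli (-1.73) and Primpol (-1.23) past 2-fold down. Of 12 genes of deoxynucleotide supply, 6 fell and 5 rose. The subunit Rrm2 of ribonucleotide reductase rose (0.37) and its p53-dependent counterpart Rrm2b fell (-2.20 ± 0.13, adjusted p 5.85e-15).

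Genes of mitosis and proliferation went the other way from the members: 14 of 20 rose and 5 fell (median log2 fold change 0.49). Mki67 rose (1.29 ± 0.15, adjusted p 0.000749), with 474.9, 348.8 and 402 CPM in XEN libraries against 176.9, 172.3 and 151.7 CPM in ES libraries. Aurka (1.20), a spindle kinase, rose past 2-fold as well, and the spindle protein Nusap1 fell (-1.14). Among 18 regulators of the E2F, RB and p53 families, 10 fell (55.6%) and 8 rose (44.4%), against 46.7% and 42% of all tested genes. Mybl2 (-1.98), an activator of late cell cycle genes, Trp53 (-1.87), Rbl2 (-1.63) and Rbl1 (-1.40) fell past 2-fold and Rb1 rose (1.15); E2f1 fell by 1.03 and E2f3 rose (0.57). Of 16 p53 targets, 6 rose and 6 fell (median 0.02), with Pmaip1 highest (3.27), Bax lowest (-1.57), and Cdkn1a, the CDK inhibitor, at 0.02 (adjusted p 0.603). The difference between the mitosis and proliferation genes and the members was not tested.

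**Figure D4:**
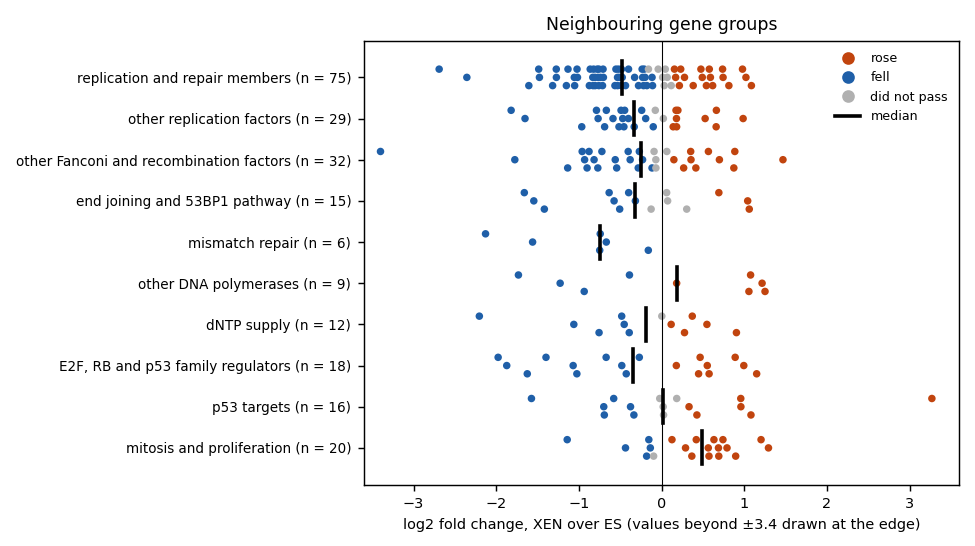
Fitted log2 fold change, XEN over ES, of each tested gene in the members and in 9 neighbouring groups; black bars are medians, orange points rose, blue points fell and grey points did not pass. Medians are -0.48 for the members, -0.75 for mismatch repair and 0.49 for mitosis and proliferation genes.

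Directions of the members differed by chromosome. By gene ID in the RefSeq annotation (GRCm38.p6), tested genes on chromosomes 6, 14, 16 and 19 had median log2 fold changes of 0.37, 0.51, 0.39 and 0.57, while the medians of the other chromosomes lay between -0.25 and 0.08. Of the 10 tested members on these 4 chromosomes, 8 rose (Cdc45, Fancd2, Mcm4, Pola2, Pold4, Rad51ap1, Rad52 and Rfc4), 1 fell (Pole4) and 1 did not pass (Mcm2). Over all tested genes there, 60.8% rose. Of the 65 members on other chromosomes, 10 rose and 49 fell, where 39.7% of all tested genes rose and 48.9% fell. The members' median was 0.54 on the 4 chromosomes and -0.52 elsewhere, against 0.46 and -0.13 for all tested genes. Pola2 lay 0.04 above the median of its chromosome, Rfc4 0.10 above and Cdc45 0.63 above. Fancd2, which also rose, lay at -0.20 from the median of its chromosome, and the other risers on these 4 chromosomes lay above theirs. The rises of Cdc6, Xrcc2, Brip1, Orc6 and Pole3 were of genes on chromosomes 11, 5, 11, 8 and 4. The chromosomes were singled out after their medians were seen; copy number was not measured, and its part in these results was not tested.

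**Figure D5:**
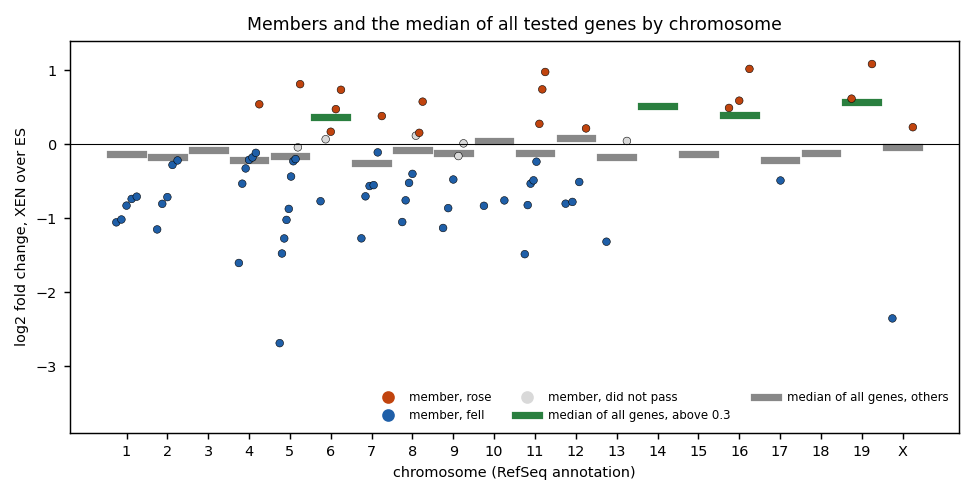
Log2 fold change, XEN over ES, of tested members (points; orange rose, blue fell, grey did not pass) by chromosome, with the median of all tested genes on that chromosome as a bar. Bars of chromosomes 6, 14, 16 and 19 (green) lie at 0.37 to 0.57 and those of the others (grey) at -0.25 to 0.08.

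The deposited length of a gene is the mean length of its transcripts weighted by abundance, so it shifts where transcript use shifts. It varied among libraries for 36 tested members and differed between groups by over 2% for 5. For Pole4, a histone-fold subunit of polymerase epsilon, it was 1646, 1646 and 1655 bases in XEN libraries, against 1272, 1289 and 1241 bases in ES libraries. The groups did not overlap, and the FPKM of Pole4, which are divided by this length, gave a log2 ratio of -1.31 where the counts gave -0.77. For Rad54b the length was 3365, 3294 and 3319 bases in XEN libraries, against 2997, 3043 and 3042 bases in ES libraries, and its log2 ratio was -1.88 in FPKM and -1.61 in counts. The counts were also TMM-scaled and the FPKM were not, so these gaps are not of length alone. Pcna, at 1260 bases in every library, had a log2 ratio of -0.84 in FPKM and -0.72 in counts. Xrcc3 was 1.05 times as long in XEN, Rad51d 1.04 times with overlapping groups, and Fancd2 0.977 times. Transcript counts were not used here, so which transcripts changed was not tested.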

How the data were processed

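Total RNA of 3 XEN and 3 ES libraries was analysed at the gene level. The submitters' processing notes list mm9, Bowtie2, RSEM and DESeq2, without versions or roles. The deposited tables hold expected counts per gene in RSEM format, of which about 16% are not whole numbers, and the authors' FPKM values with a weighted transcript length. A gene absent from a library's table was taken as 0 counts. Whether counting used the strand is not given in the sources used here.

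Expected counts were rounded to whole numbers, filtered with filterByExpr and scaled by TMM. XEN was compared with ES in edgeR 4.0.16 (R 4.3.3) by its robust quasi-likelihood test, fitted on all 13581 tested genes and adjusted by Benjamini-Hochberg (threshold 0.05). For changes past 2-fold, glmTreat was used on that fit. The biological coefficient of variation was 4.75%. The SE of a log2 fold change comes from log2 CPM of the libraries in each group (prior count 2), and 3 counts came to 0.134 to 0.145 CPM. Overlap between groups was counted on TMM-scaled CPM; overlaps named beside FPKM values are of those FPKM. No 2 libraries were alike within sampling noise (chi-square over degrees of freedom at least 2.45). Libraries with the same letter did not deviate together (r 0.0308, -0.075 and 0.0396), so the letters were not used as pairs.

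The members and the gene lists were chosen with earlier results of these data known, and the lists come from textbook knowledge. Named genes were, of each role, the largest called rise and fall and the most abundant member, all members past 2-fold and those below the filter (34 genes); other members are named for completeness. A member counted in the totals and a gene of the mismatch repair list are not reported here. The symbols Fam175a, Shfm1, Dntt, Lum, Hand1 and Tpbpa of the lists were not found. Chromosomes and promoters came from RefSeq tables of GRCm38.p6 by gene ID, with a chromosome for 95.02% of tested genes. Alternatives were RLE and upper-quartile scaling, other filters, a replicate block, leaving out each library, adding an unnamed model to the named gene of its orthology term, DESeq2 1.42.0 and limma-trend (limma 3.58.1) on log2(FPKM + 1) and log2(FPKM + 0.1). Leaving out members on chromosomes 6, 14, 16 and 19 was added after the data were seen. The test was checked on simulated data in which few genes were changed, equally up and down. Most tested genes passed in the real data, a setting that this check does not cover.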

Additional observations from a re-analysis of the deposited data

Results flagged for a closer look

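An unnamed gene model added by the authors carries the orthology term of Pcna. It was among the 13581 tested genes, but the main comparison did not count its reads toward Pcna. Its expected counts were 1443.8, 1308.76 and 1230.48 in XEN libraries, against 2359.33, 2363.77 and 2491.4 in ES libraries, far above 3 counts in each. It fell in XEN cells (log2 fold change -0.75 ± 0.06, edgeR adjusted p 3.46e-12), and Pcna itself fell by 0.72. Its length is given as 1277 bases, and that of Pcna as 1260 bases. The expected counts of Pcna were not whole numbers in all 6 libraries. Whether reads of Pcna were split between the 2 models was not tested.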

How the results depend on the processing

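Of the 68 members called, 62 kept their call under all 15 alternatives and 6 lost it under at least 1 (Blm, Fancb, Fancd2, Gins2, Rad51d and Xrcc3); no called member changed sign. Between 13 and 19 members rose and 49 to 54 fell. With a replicate block, 18 rose and 51 fell (Atm in addition), and no call was lost. The median log2 fold change of members was -0.6243 under upper-quartile scaling, which also lowered all genes by 0.147, -0.4949 with a mean of at least 1 CPM, -0.5256 on log2(FPKM + 1), -0.6005 on log2(FPKM + 0.1), and -0.4825 to -0.4359 when a library was left out. Without members on chromosomes 6, 14, 16 and 19, 10 rose and the median was -0.523. Some members that did not pass changed sign. Under upper-quartile scaling, log2(FPKM + 1) and log2(FPKM + 0.1), Gins3 had -0.0315, -0.0136 and -0.0155, Gmnn -0.1028, -0.0791 and -0.08, Mcm2 -0.0795, -0.0626 and -0.0631, and Rad54l2 -0.1357, -0.1049 and -0.1179; of these Rad54l2 then passed as lower under upper-quartile scaling. Rad54l2 had -0.0062 with a mean of at least 1 CPM. When a library was left out, Rad54l2 ranged from -0.0307 to 0.0572. The cause was not tested. Of 630 counts per list or role under an alternative, 20 moved by over 1.5 times; the other replication factors that rose went to 4, against 9, under upper-quartile scaling and on FPKM. Depth limits Rad51ap2, at or near 0 counts in all libraries, and Fancd2os, with 0 counts in XEN and 8 to 11 in ES libraries.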

Other observations

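Levels of the tested members ran from 1.46 FPKM (Brca2) to 192 FPKM (Pcna) in XEN cells, and from 2.02 FPKM (Brip1) to 344 FPKM (Pcna) in ES cells. The authors' annotation added a transcript to 19 members. Of the members, 18 had an expected count that was not whole in at least 1 library, among them Pcna, Brca2, Fanci, Fancl and Rad54b.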
